A study of Mus musculus with 4 samples.

Results

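Enzymes that detoxify peroxides, superoxide and reactive electrophiles were followed on 4 two-channel oligonucleotide arrays of mouse embryonic fibroblasts (MEFs), connective tissue cells grown from mouse embryos. The group comprises 35 of the 16463 transcript probes, namely every spot whose printed name begins with Glutathione, Peroxiredoxin, Superoxide dismutase, Catalase, Thioredoxin 1, Thioredoxin 2, Thioredoxin reductase or Glutaredoxin. The rule reads names only, although the group was picked with earlier results of these data known, including the gap of Gpx1 between arrays. Each member was printed once per array, and all 35 passed the filter on local background. A current gene symbol was found for 31 members through their RefSeq accession, and the other 4 (superoxide dismutase 1, superoxide dismutase 3, peroxiredoxin 6 and glutathione S-transferase mu 3) are called here by their printed names. Printed name and RefSeq symbol disagreed for 2 members. The probe printed as peroxiredoxin 5 carries the accession of Prdx6, and the probe printed as glutathione S-transferase pi 2 carries that of Gstp1.

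On 2 of the arrays, named stable here, the Cy5 channel held MEFs stably transfected with a plasmid expressing the homeobox transcription factor Dlx3, and the Cy3 channel held cells transfected with an empty plasmid. On the 2 transient arrays, the Cy5 channel held Dlx3-expressing cells 24 h after transfection and the Cy3 channel held control MEFs, for which no plasmid is named. Per the titles, the second array of each kind is a biological repeat. Mouse strain, embryo age and the number of stable clones are not given in the sources used here. The study's title concerns Dlx3 and its targets Lifr and Chrdl1 in differentiating embryonic stem cells, so the antioxidant enzymes were no stated target of the work.

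All values are log2 ratios of the Dlx3 channel over the control channel, so that 0 means equal signal and values below 0 mean less signal from the Dlx3 cells. Dlx3 cells carried Cy5 on all 4 arrays, so a dye effect of a probe cannot be told apart from a difference between the cells. A probe counts as called at a limma adjusted p under 0.05, taken over 14610 tested probes. Spots above local background made up 77.3 to 87.2% of transcript spots per array, and the arrays of a kind correlated across probes at r = 0.637 (stable) and 0.636 (transient). The probe for Dlx3 itself read 0.06 and 0.23 in the stable pair, then 0.14 and 0.56 in the transient pair, and was not called (adjusted p = 0.396 and 0.179), so the arrays give no call for the transfected gene. Of 11 fibroblast markers, 6 were tested, and Pdgfra and Dcn were higher in stable Dlx3 cells (0.98 and 1.00). Of 8 macrophage, 7 endothelial and 5 skeletal muscle markers, 3, 4 and 4 were tested, and none was called by limma in any contrast, with 0, 1 and 1 at an unadjusted p under 0.05 in stable cells. Of 5 erythroid markers 1 was tested, Hbb-y, and it was higher (0.83). Of 6 epidermal markers 4 were tested, and Krt5 and Dsc3 were called in opposite directions (0.46 and -0.82). The part of these markers in the antioxidant values was not tested. RNA was taken from whole cultures, in which fewer cells of a type and less RNA per cell cannot be told apart.

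Cells remove hydrogen peroxide along parallel routes. Catalase splits it directly in peroxisomes, glutathione peroxidases reduce it at the expense of the tripeptide glutathione, and peroxiredoxins reduce it through reactive cysteines that thioredoxin restores. Glutathione reductase and thioredoxin reductases recycle these carriers with NADPH, superoxide dismutases supply part of the peroxide from superoxide, and glutathione S-transferases attach glutathione to electrophiles. Many of these genes are known targets of the transcription factor NRF2, which binds antioxidant response elements.

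The promoters of Prdx1, Txnrd1 and Gpx1 are shown because Prdx1 and Txnrd1 hold the core letters of an antioxidant response element, TGACNNNGC on either strand, while Gpx1, the member with the highest ratio, does not. Each is the stretch of 250 bases before the RefSeq start in GRCm38.p6, read 5′ to 3′ on the gene's strand, with capitals marking a match.
Prdx1, chr4:116685349-116685598, plus strand: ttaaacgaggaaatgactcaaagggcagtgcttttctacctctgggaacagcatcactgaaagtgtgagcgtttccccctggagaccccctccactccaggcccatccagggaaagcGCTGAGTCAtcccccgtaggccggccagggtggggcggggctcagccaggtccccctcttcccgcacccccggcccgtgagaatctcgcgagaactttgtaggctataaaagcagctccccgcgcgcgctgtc
Txnrd1, chr10:82858956-82859205, plus strand: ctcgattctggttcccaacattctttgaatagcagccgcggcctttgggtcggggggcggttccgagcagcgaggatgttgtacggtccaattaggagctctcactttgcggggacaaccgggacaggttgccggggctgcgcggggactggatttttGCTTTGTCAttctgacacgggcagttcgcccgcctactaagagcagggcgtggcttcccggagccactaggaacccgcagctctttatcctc
Gpx1, chr9:108338830-108339079, plus strand: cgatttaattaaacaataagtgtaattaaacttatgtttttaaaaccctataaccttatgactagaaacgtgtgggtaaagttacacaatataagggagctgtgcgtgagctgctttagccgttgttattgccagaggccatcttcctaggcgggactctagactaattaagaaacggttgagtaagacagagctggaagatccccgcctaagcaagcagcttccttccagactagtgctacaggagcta
Of the members, 27 had a RefSeq window of 250 bases before and 50 after a start, and 4 of these (Prdx1, Txnrd1, Gsta3 and Gstm5) held a match in at least 1 window. That is 14.8% of the members with a window, against 14% of all 27025 genes in the table, so the letters were about as frequent among the members as elsewhere.

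Across the members, changes were small and those called were mostly downward. In stable transfectants 8 of 35 members were called, which is 22.9% against 22.7% of all tested probes. At an unadjusted p under 0.05 there were 13 members (37.1%, against 40% of all probes). Higher calls were 1 of 35 (11.6% of all probes) and lower calls 7 of 35, or 20% (11.2% of all probes). The lower members were glutathione reductase Gsr, the transferase Gsto1, the peroxiredoxins Prdx1 and Prdx3, the probe printed as peroxiredoxin 6, and the thioredoxins Txn1 and Txn2, and the higher member was the transferase Gstm2. The number of calls rested on which arrays entered the fit. It was 13 without the first stable array, where 29.8% of all probes were called, and 3 without the second (14.1%). Of the 8, the peroxiredoxin 6 probe alone was among those 3. It was 2, Prdx3 and Gpx1, without either transient array or with the stable arrays fitted alone (8.41% of all probes), when the spread of each probe came from fewer arrays.

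After 24 h of transient transfection 0 of 35 members was called by limma, where 0.144% of all probes were (0.0479% lower), while 12 members had an unadjusted p under 0.05 (34.3%, against 20.2% of all probes). Fitted without the stable arrays, the transient pair alone gave 7 called members, 6 lower and 1 higher, with 8.87% of all probes called. The same 7 calls followed from leaving out either stable array, and leaving out the first or second transient array gave 0 and 1 (Gpx1), with 0.0205% and 0.0753% of all probes called. No member was called by limma in the difference between stable and transient ratios, with 5 members at an unadjusted p under 0.05 (14.3%, against 19.5% of all probes) and 0.24% of all probes called. Without the first stable array this difference was -0.96 for Cat and 0.71 for Gstm2. Without the second stable array it was 1.31 for superoxide dismutase 3. With 1 stable array left, that array added nothing to the estimate of spread.

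Averaged over both kinds of transfection, 8 members were called, 7 lower (20%, against 11.3% of all probes) and 1 higher (2.86%, against 11%), with 22.3% of all probes called in either direction and 16 members at an unadjusted p under 0.05 (45.7%, against 39.5%). The lower members were Gsr, Gsto1, Prdx3, peroxiredoxin 6, Txn1, Txn2 and Txnrd1, and the higher was Gpx1. By sign alone, 10 members lay below 0 on all 4 arrays (28.6%, against 20% of all probes) and 4 lay above 0 on all 4 (11.4%, against 19.7%). Within a kind, 15 members lay below 0 on both stable arrays (42.9%, against 36.2% of all probes) and 16 on both transient arrays (45.7%, against 36.4%). This average gave 0 called members without the first transient array, where 1.52% of all probes were called, and 2 (Gpx1 and Txn1) without the second (1.71%). It gave 14 without the first stable array (34% of all probes) and 7 without the second (24.1%).

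**Figure D1:**
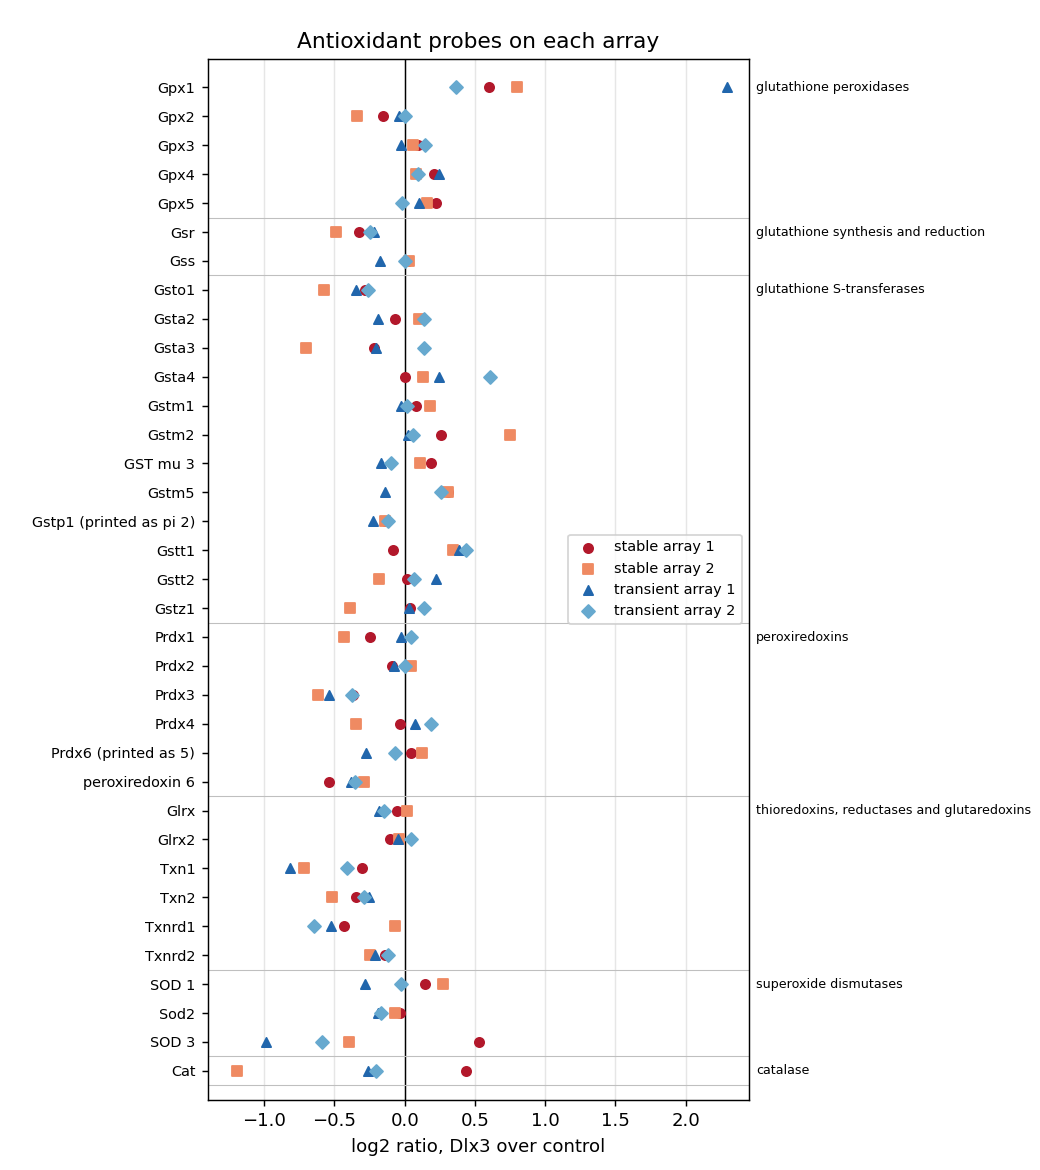
Log2 ratio of the Dlx3 over the control channel (horizontal axis) for each of the 35 antioxidant probes (rows, ordered by enzyme family), with 1 point per array and the line at 0 marking equal signal. Txn1, Txn2, Prdx3, Gsr and Gsto1 lie left of 0 on all 4 arrays, and Gpx1 lies right of 0 on all 4, with its first transient value at 2.30.

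Gpx1, the cytosolic selenium-containing glutathione peroxidase, had the highest ratio of any member, and its arrays disagreed in size. It read 0.60 and 0.80 in the stable pair, then 2.30 and 0.37 in the transient pair. All 4 arrays were positive, and the first transient array stood far above the other transient array. The stable mean was 0.70 ± 0.14 (SD, n = 2, 1.62-fold, limma adjusted p = 0.234) and the transient mean 1.33 ± 1.37 (SD, n = 2, adjusted p = 0.154), neither of which was called. Over all 4 arrays Gpx1 rose by 1.02 (2.02-fold, adjusted p = 0.0483), and without the first transient array the value was 0.53. This call lay close to the threshold and ended in 8 of 14 alternatives, among them print-tip loess (adjusted p = 0.0689) and robust empirical Bayes. With the first or the second stable array left out, the average was 1.07 and 0.96. With the stable arrays fitted alone, so that the spread of the transient arrays did not enter, the same 0.70 was called (adjusted p = 0.0261).

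The Gpx1 spot was dim. After subtraction of local background, its Dlx3 channel read 191 and 205 in the stable pair, then 1145 and 160 in the transient pair. Its control channel read 102 and 89 in the stable pair, then 184 and 106 in the transient pair. The Dlx3 channel was thus the brighter on every array, and only the first transient Dlx3 reading was large. All 8 readings lay above local background, but 1 of 8 exceeded the 95th percentile of 192 randomized oligonucleotides, which have no target.

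On the first transient array the pixels of that spot were uneven. The mean over pixels of its Dlx3 channel was 1303, the median 702 and the SD 1394. On the other 3 arrays means of 288 to 310 stood beside medians of 287 to 300, with SDs of 113 to 121. The 5 adjacent transcript spots on the first transient array read between -0.21 and 0.06. With the median over pixels in place of the mean, an alternative chosen after seeing these values, Gpx1 read 0.87 and 1.03 in the stable pair, then 1.41 and 0.54 in the transient pair. The gap between the transient arrays shrank under that setting, and Gpx1 was called in the stable group (0.95, adjusted p = 0.0173) and over all 4 arrays (0.96, adjusted p = 0.00686).

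None of the other 4 glutathione peroxidases was called in any contrast. Gpx4, which reduces lipid peroxides in membranes, read 0.21 and 0.08 in the stable pair, then 0.25 and 0.10 in the transient pair, positive throughout. The secreted Gpx3 read 0.09 and 0.06 in the stable pair, then -0.03 and 0.15 in the transient pair. Gpx2, the gastrointestinal form, read -0.15 and -0.34 on the stable arrays and lay between -0.04 and 0.00 on the transient arrays. Gpx5, an epididymal form, read 0.22 and 0.16, then 0.10 and -0.02, and was above background in only 4 of its 8 readings. No value of these 4 lay further from 0 than the -0.34 of Gpx2.

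**Figure D2:**
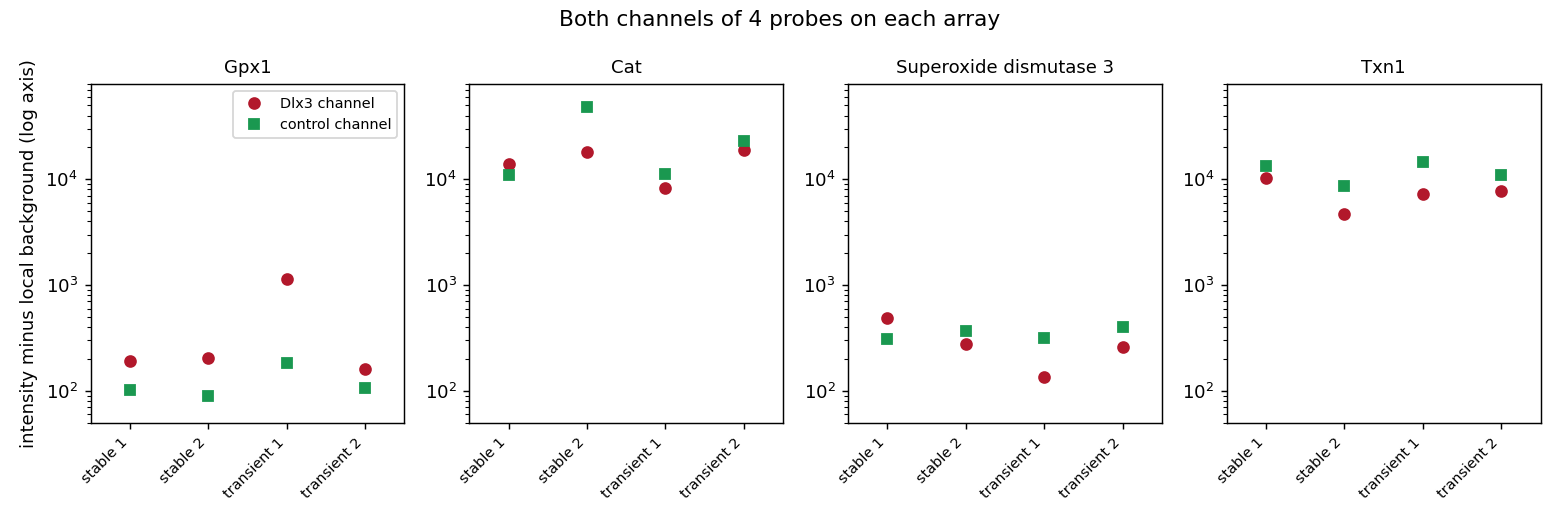
Intensity minus local background (vertical log axis) in the Dlx3 channel (circles) and the control channel (squares) on the 4 arrays (horizontal axis) for Gpx1, Cat, superoxide dismutase 3 and Txn1. Gpx1 is dim except in the Dlx3 channel of the first transient array (1145), Cat stands out in the control channel of the second stable array, and the Txn1 control channel is the brighter on each array.

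Among the enzymes that make and restore glutathione, the reductase was lower and the synthetase was not. Gsr, which regenerates reduced glutathione, read -0.32 and -0.49 in the stable pair, then -0.22 and -0.24 in the transient pair, below 0 on all 4. Its stable mean fell by 0.41 on the log2 scale (SD 0.12, n = 2, 1.33-fold, adjusted p = 0.021), its transient mean was -0.23 (adjusted p = 0.191), and its average fell by 0.32 (adjusted p = 0.0159). Print-tip loess, which fits each print block on its own, ended both calls (adjusted p = 0.0632 and 0.07125). Gss, which joins glycine in the last step of glutathione synthesis, read 0.03 on both stable arrays, then -0.18 and 0.00 in the transient pair (adjusted p = 0.812 and 0.593).

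The 12 glutathione S-transferases went different ways, with 1 called higher and 1 lower in stable transfectants (11.6% and 11.2% of all probes). Their stable means ranged from -0.46 (Gsta3) to 0.50 (Gstm2) and their transient means from -0.30 (Gsto1) to 0.42 (Gsta4). Gsto1, an omega-class enzyme with thioltransferase activity, read -0.28 and -0.58 in the stable pair, then -0.34 and -0.26 in the transient pair. It was low on all 4 arrays, and fell by 0.43 in stable cells (SD 0.21, n = 2, adjusted p = 0.0276) and by 0.37 on average (adjusted p = 0.0173). Its stable call ended under print-tip loess (-0.26, adjusted p = 0.057), and its stable value was -0.28 when the second stable array was left out. Gstm2, a mu-class enzyme, read 0.26 and 0.75 in the stable pair, then 0.02 and 0.06 in the transient pair. Both stable arrays lay above both transient arrays, an order that 12 of 35 members and 28.4% of all probes showed. Gstm2 rose by 0.50 in stable cells (SD 0.35, n = 2, 1.42-fold, adjusted p = 0.0356), or by 0.26 when the second stable array was left out. The call ended under plain background subtraction and with the stable arrays fitted alone (adjusted p = 0.0692). The Gstm2 control channel was not above local background on the first stable array, and no reading of the spot exceeded the randomized oligonucleotides.

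The remaining transferases were not called. The theta-class Gstt1 read -0.08 and 0.35 in the stable pair, then 0.39 and 0.44 in the transient pair, so that 3 of 4 arrays were high (transient adjusted p = 0.133, and 0.029 with the transient pair fitted alone). Gsta4, which conjugates the lipid peroxidation product hydroxynonenal, read 0.00 and 0.13, then 0.24 and 0.61 (transient adjusted p = 0.116). Gsta3 read -0.22 and -0.70 in the stable pair, then -0.20 and 0.14 in the transient pair (stable adjusted p = 0.0594). Gstm5 read 0.31 on both stable arrays, then -0.14 and 0.26 in the transient pair (stable adjusted p = 0.0871). Of these, Gsta3 and Gsta4 had none of 8 readings above the randomized oligonucleotides, Gstt1 had 1 and Gstm5 had 2. Neither channel of Gstt1 was above local background on the second transient array, nor was the Dlx3 channel of Gsta4 there. The Dlx3 channel of Gsta3 was not above it on the first transient array, where that spot was marked not found.

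Gstp1, the pi-class enzyme, lay below 0 on all 4 arrays by a little, from -0.23 to -0.12, with an average of -0.16 (adjusted p = 0.0831). Gstm1, Gsta2, Gstt2 and the mu 3 probe had stable means between -0.08 and 0.15 and transient means between -0.13 and 0.14. Gstz1, which also isomerizes maleylacetoacetate in tyrosine breakdown, read -0.39 on the second stable array and between 0.03 and 0.14 on the other 3. Mouse alpha, mu and pi transferases have close relatives, such as Gstp2 beside Gstp1, and with no probe sequence read here their signals cannot be assigned to a single copy.

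Of 6 peroxiredoxin probes, 3 were called lower in stable transfectants, beside 11.2% of all probes. Under print-tip loess, Prdx1 alone of these kept its stable call (-0.31, adjusted p = 0.0408), and the peroxiredoxin 6 probe moved to -0.06 (adjusted p = 0.549). Prdx3, the mitochondrial peroxiredoxin, read -0.37 and -0.61 in the stable pair, then -0.54 and -0.38 in the transient pair. The stable and transient values overlapped, and all were low. Prdx3 fell by 0.49 in stable cells (SD 0.17, n = 2, 1.41-fold, adjusted p = 0.0197) and by 0.47 on average (1.39-fold, adjusted p = 0.00942), beside a transient mean of -0.46 ± 0.11 (SD, n = 2, adjusted p = 0.0925). Under print-tip loess the average was -0.31 (adjusted p = 0.0389) and the stable call ended (adjusted p = 0.062). All 8 readings of the Prdx3 spot exceeded the randomized oligonucleotides.

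Prdx1, an abundant cytosolic peroxiredoxin and the promoter shown first above, read -0.25 and -0.43 in the stable pair, then -0.03 and 0.04 in the transient pair. Both stable arrays lay below both transient arrays, as for 9 of 35 members and 26.7% of all probes. Prdx1 fell by 0.34 in stable cells (SD 0.13, n = 2, 1.27-fold, adjusted p = 0.0348), and the value was -0.25 when the second stable array was left out. Its stable minus transient difference of -0.35 was not called (adjusted p = 0.208). Prdx2, the peroxiredoxin prominent in red cells, stayed between -0.09 and 0.04 on the 4 arrays. Prdx4, of the endoplasmic reticulum, read -0.03 and -0.35 in the stable pair, then 0.07 and 0.18 in the transient pair (stable adjusted p = 0.204).

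The probe of Prdx6, printed as peroxiredoxin 5, read 0.04 and 0.12 in the stable pair, then -0.28 and -0.07 in the transient pair, with no call. The probe printed as peroxiredoxin 6 differed from it, at -0.54 and -0.29 in the stable pair, then -0.38 and -0.35 in the transient pair. That probe was called lower in stable cells (-0.41, adjusted p = 0.0254) and on average (-0.39, adjusted p = 0.0125). The 2 probes, one tied to Prdx6 by its accession and the other only by its printed name, thus lay on opposite sides of 0 in the stable pair and both below 0 in the transient pair. This did not hold under print-tip loess. The peroxiredoxin 6 probe then read -0.09 and -0.04 in the stable pair, beside -0.002 and 0.11 for the Prdx6 probe. In the transient pair it read -0.03 and 0.03, beside -0.38 and -0.14.

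All 4 probes for thioredoxins and their reductases (Txn1, Txn2, Txnrd1 and Txnrd2) lay below 0 on all 4 arrays, as did 20% of all probes. Txn1, the cytosolic thioredoxin that restores peroxiredoxins, read -0.30 and -0.72 in the stable pair, then -0.82 and -0.41 in the transient pair. Its spot was bright, with background-subtracted readings of 10251 against 13465 and 4685 against 8559 (Dlx3 against control) on the stable arrays. On the transient arrays it read 7246 against 14475 and 7741 against 11023, so that the control channel was brighter throughout.

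Txn1 fell by 0.51 in stable cells (SD 0.29, n = 2, 1.42-fold, adjusted p = 0.0455) and by 0.56 on average (1.48-fold, adjusted p = 0.015). When the second stable array was left out, its stable value was -0.30. Its transient mean was -0.61 ± 0.29 (SD, n = 2, 1.53-fold, adjusted p = 0.0992), and 0.0384 with the transient pair fitted alone. Txn2, the mitochondrial thioredoxin, read -0.35 and -0.52 in the stable pair, then -0.26 and -0.29 in the transient pair. It fell by 0.43 in stable cells (SD 0.12, n = 2, 1.35-fold, adjusted p = 0.0189) and by 0.35 on average (adjusted p = 0.0128). Under print-tip loess Txn1 and Txn2 stayed called in stable cells (-0.53 and -0.36, adjusted p = 0.0402 and 0.0258) and on average (-0.60 and -0.32, adjusted p = 0.017 and 0.0171). With the stable arrays fitted alone both stable calls ended (adjusted p = 0.058 and 0.05355). Leaving out either transient array repeated that stable fit, so these alternatives are not independent. Among the alternatives, the stable calls of Txn1 and Txn2 ended in 7 and 4 of 16, and their average calls in 1 and 2 of 15.

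Txnrd1, the cytosolic selenoprotein that reduces thioredoxin, read -0.43 and -0.07 in the stable pair, then -0.52 and -0.65 in the transient pair. It was lowest on the transient arrays (mean -0.59 ± 0.09, SD, n = 2, adjusted p = 0.078), and on average it fell by 0.42 (1.34-fold, adjusted p = 0.0165). Txnrd2, the mitochondrial reductase, read between -0.25 and -0.12 on the 4 arrays, with an average of -0.18 that was not called (adjusted p = 0.0614). The glutaredoxins, which use glutathione to reduce protein thiols, lay closer to 0. Glrx read -0.05 and 0.01, then -0.18 and -0.15, and Glrx2 read between -0.10 and 0.05.

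The place of a spot on the slide moved with the values of Txnrd1 and of the peroxiredoxin 6 probe. Both are printed in the same one of 32 blocks. The median ratio over the 496 transcript spots of that block was -0.40 and -0.30 in the stable pair, then -0.25 and -0.35 in the transient pair, and its mean was the lowest of any block. Among 188 bright spots in it, medians ran from -0.45 to -0.30, against -0.00358 to 0.00252 for 4164 equally bright spots of all blocks. Print-tip loess, which centres each block, brought Txnrd1 to an average of -0.06 (adjusted p = 0.502) and to 0.11 in stable cells. It brought the peroxiredoxin 6 probe to -0.03 (adjusted p = 0.667). The transient value of Txnrd1 was then -0.22 (adjusted p = 0.267), so its average near 0 joined opposite signs in the 2 kinds, at 0.03 and 0.19, then -0.17 and -0.27 on the arrays. The peroxiredoxin 6 probe read between -0.09 and 0.03 on the 4 arrays. Under print-tip loess 6 members were called on average, with 13% of all probes, and all 6 were lower, namely Gsto1, Prdx3, Txn1 and Txn2 as before and Prdx1 (-0.23, adjusted p = 0.0434) and Sod2 (-0.24, adjusted p = 0.034) in addition. The blocks of the other called members had mean medians between -0.12 (Prdx3) and 0.05 (Txn1).

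**Figure D3:**
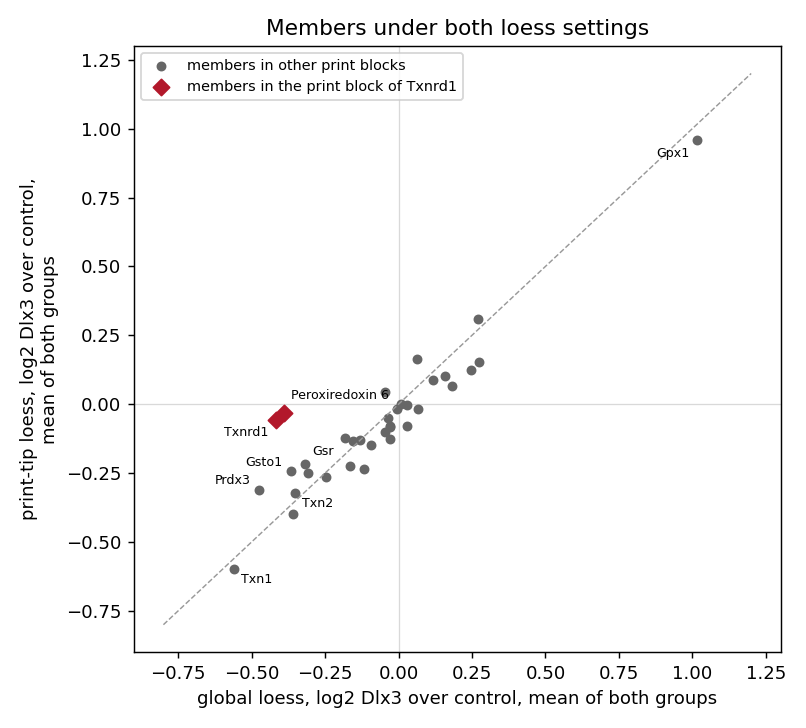
Average log2 ratio over both kinds of transfection for each member under global loess (horizontal axis) and print-tip loess (vertical axis), with the dashed line marking equal values. Txnrd1 and the peroxiredoxin 6 probe (diamonds) move to -0.06 and -0.03 under print-tip loess, while Txn1, Txn2 and Gpx1 stay near the line.

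The superoxide dismutases were not called, and the extracellular form was the most variable. The superoxide dismutase 3 probe read 0.53 and -0.39 in the stable pair, then -0.99 and -0.59 in the transient pair. The stable arrays had opposite signs and both transient arrays lay below them. Its stable mean was 0.07 ± 0.65 (SD, n = 2, adjusted p = 0.84), its transient mean -0.79 ± 0.28 (SD, n = 2, 1.72-fold, adjusted p = 0.133, and 0.0281 with the transient pair fitted alone). The stable minus transient difference was 0.85 (adjusted p = 0.218), or 0.39 and 1.31 with the first and the second stable array left out. No reading of this spot exceeded the randomized oligonucleotides. Superoxide dismutase 1, the cytosolic copper and zinc enzyme, read 0.15 and 0.27 in the stable pair, then -0.28 and -0.02 in the transient pair, opposite in sign between the kinds (difference 0.36, adjusted p = 0.222). Sod2, the mitochondrial manganese enzyme, read between -0.19 and -0.03 on the 4 arrays, with an average of -0.12 (adjusted p = 0.15).

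Catalase showed the widest gap between arrays of the stable pair. Cat read 0.43 and -1.20 in the stable pair, then -0.26 and -0.20 in the transient pair. The stable pair disagreed in sign, while the transient pair lay together. Its background-subtracted Dlx3 channel was similar on the stable arrays, at 14051 and 17922, whereas its control channel rose from 11055 to 48188. Both channels had 0% of pixels saturated there, and the median over pixels gave the same picture, with control medians of 11232 and 48470. The stable mean was -0.38 ± 1.15 (SD, n = 2, adjusted p = 0.43) and the transient mean -0.23 ± 0.04 (SD, n = 2, adjusted p = 0.742). Taken singly, the stable arrays gave opposite directions, at -1.20 without the first and 0.43 without the second. The stable pair thus gives no direction for Cat. With 1 stable array left, the spread of the stable pair did not enter the fit, so no adjusted p is given.

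**Figure D4:**
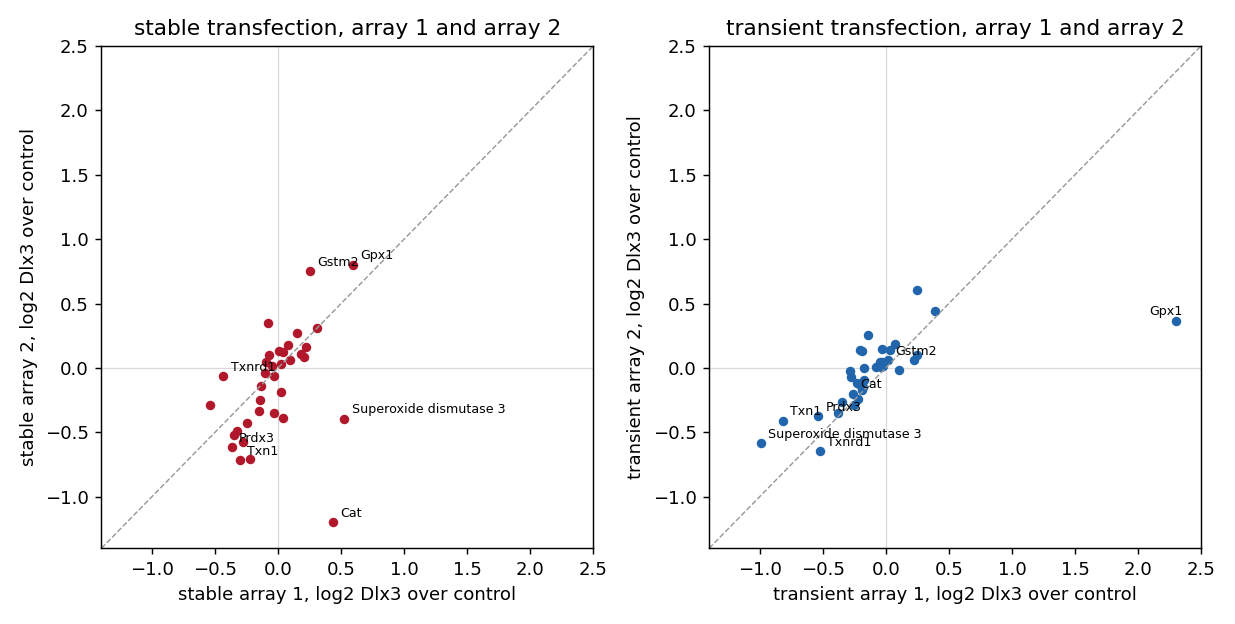
Log2 ratio of the 35 members on the first (horizontal axis) against the second array (vertical axis) of the stable pair (left) and the transient pair (right), with the dashed line marking equal values. Cat and superoxide dismutase 3 leave the line in the stable pair, and Gpx1 leaves it in the transient pair (2.30 against 0.37).

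Differences between arrays of a kind were otherwise like those of other probes. The median gap was 0.17 over members and 0.16 over all tested probes for the stable pair, and 0.11 against 0.10 for the transient pair. Gaps over 0.5 were found for 2 members in the stable pair (5.71%, against 7.21% of all probes), Cat and superoxide dismutase 3, and for 1 in the transient pair (2.86%, against 1.75%), Gpx1. The next widest were Gstm2 in the stable pair and Txn1 and superoxide dismutase 3 in the transient pair.

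Other genes of the same chemistry were called in both directions in stable cells. Of 30 listed NRF2 regulators and targets, 21 were tested, and 4 were higher and 2 lower in stable cells, with a median of 0.05 against 0.007 over all probes. The NADPH-producing Pgd (-0.52, adjusted p = 0.014) and the quinone reductase Nqo1 (-0.56, adjusted p = 0.0185) were lower. The ferritin light chain Ftl1 (0.40, adjusted p = 0.0278), the carbonyl reductase Cbr1 (0.34, adjusted p = 0.0317), the NRF2 antagonist Bach1 (0.37, adjusted p = 0.0339) and Akr1b8 (0.28, adjusted p = 0.049) were higher. Nqo1 read 0.08 and 0.05 on the transient arrays, so its fall was called in stable cells, with the difference between the kinds not called (-0.62, adjusted p = 0.147). On average over both kinds 4 were higher and 1, Pgd, was lower (-0.47, adjusted p = 0.00781), with 22.3% of all probes called. The higher included Bach1 (0.34, adjusted p = 0.0171) and Ftl1 (0.33, adjusted p = 0.0189). Also higher were Txnip (0.41, adjusted p = 0.0377) and Idh1 (0.21, adjusted p = 0.0464). Txnip, which binds and inhibits thioredoxin, read 0.42 and 0.28 in the stable pair, then 0.77 and 0.16 in the transient pair.

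Of 26 listed genes of other thiol and peroxide defence, 17 were tested and only Selenok, a selenoprotein of the endoplasmic reticulum, was called in stable cells (0.43, adjusted p = 0.0329), with a list median of -0.02. On average Sesn3, a stress-induced sestrin (0.57, adjusted p = 0.00964), and the selenium carrier Selenop (0.53, adjusted p = 0.0208) were higher. Of 20 listed superoxide and peroxide producers 9 were tested. The oxidase organizer Noxo1 (0.38, adjusted p = 0.0478) and the lysyl oxidase Lox (0.36, adjusted p = 0.0347) were higher in stable cells, none was lower, and the list median was 0.07. Of 8 listed selenoprotein synthesis genes 5 were tested, and the selenophosphate synthetase Sephs2 (-0.40, adjusted p = 0.0369) and the elongation factor Eefsec (-0.33, adjusted p = 0.0327) were lower in stable cells, with a list median of -0.05. None of these 4 lists had a member called by limma in transient cells. There 7, 3, 2 and 0 of 21, 17, 9 and 5 tested members had an unadjusted p under 0.05, as did 20.2% of all probes. None had one in stable minus transient, where 3, 4, 1 and 1 did, beside 19.5% of all probes. In stable cells the called members were thus 6 of 21, 1 of 17, 2 of 9 and 2 of 5, beside the 22.7% of all probes. Of the last 2 lists, Lox (0.26, adjusted p = 0.0337) and Xdh (0.29, adjusted p = 0.0344) were higher on average. Eefsec was lower (-0.25, adjusted p = 0.0266). On average the 4 lists had 4, 2, 2 and 0 members higher and 1, 0, 0 and 1 lower, with 22.3% of all probes called.

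The name rule left out 9 probes whose printed names hold the same words further on, which were looked at after the members. The only stable call among them was the microsomal transferase Mgst3, at -0.49 and -0.78 in the stable pair, then 0.55 and 0.31 in the transient pair. Its signs were opposite between the kinds, with a stable value of -0.63 (adjusted p = 0.0149), a transient value of 0.43 (adjusted p = 0.111) and a difference of -1.07 that was not called (adjusted p = 0.0681). A second probe described as similar to Gpx3 read 0.39 and 0.23 in the stable pair, then 0.27 and 0.03 in the transient pair (stable adjusted p = 0.0607). Another, described as glutathione S-transferase mu type 3, read -0.15 and -0.17, then -0.19 and -0.07, and was not called. The member printed as mu 3 read 0.18 and 0.11, then -0.17 and -0.09, opposite in sign in the stable pair.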

How the data were processed

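Each of the 4 arrays was deposited as a scanner table of foreground and background intensity for 17664 spots at 635 nm (Cy5, Dlx3) and 532 nm (Cy3, control), read with GenePix Pro 5.0.0.49 per the file headers and not normalized. The deposited tables also give, per the file headers, the percent of saturated pixels and a score per spot, namely the scanner's own ratio of control over Dlx3, used only to describe spots. A further deposited table holds the authors' signed score per spot, whose scale and centring are not stated. It behaved as minus the ratio of control over Dlx3 (column medians -1.001 to -1.007) and served as an alternative. Turned into a log2 ratio of Dlx3 over control, it correlated at 0.862 to 0.957 with the normalized ratios used here.

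The normexp correction (offset 50) of limma 3.58.1, run in R 4.3.3, was applied to mean foreground and median background. Global loess followed within each array, fitted with the 1009 control spots weighted 0. Spots marked bad were left out and repeated spots averaged. Probes entered the tests if the median foreground of either channel lay over 2 background SDs above background on 2 or more of the 4 arrays. A mean per kind of transfection was fitted over all 4 arrays with lmFit and eBayes (2 residual and 4.2 prior degrees of freedom), two-sided, with Benjamini-Hochberg adjustment over all tested probes. Contrasts were stable, transient, stable minus transient and the average of stable and transient. All arrays have the same dye orientation, so a dye effect of a probe cannot be told apart from a Dlx3 effect, except where equal effects cancel in stable minus transient. The number of arrays limits the precision. Names came from a RefSeq table (GRCm38.p6), through accessions for 6678 probes. For list genes with several probes the brightest was used. The fit was tested on simulated data. Named with statistics were Gpx1, every called member and the 3 members with the widest gap between arrays of a kind, and other members were added by family. From the gene lists, up to 6 called genes were named. Alternatives covered background correction, normalization, filters, the deposited values, the empirical Bayes step and arrays left out, and a further one (median foreground) was chosen after seeing the data. Where 1 array of a kind was left, it was assumed to vary like the other kind. Nothing beyond the titles says that arrays came from separate cultures, so p-values measure the spread between these arrays. Members and lists were chosen with earlier results of these data known.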

Additional observations from a re-analysis of the deposited data

How the results depend on the processing

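The number of called members in stable transfectants, 8 here, was 4 with plain background subtraction, 5 with print-tip loess and 2 with the stable arrays fitted alone, and ranged from 2 to 13 when an array was left out. In transient transfectants, 0 here, it was 5 with median centring, 9 with scaling between arrays, 1 with the authors' deposited value table and 7 with the transient arrays fitted alone, and ranged from 0 to 7 when an array was left out. In stable minus transient, 0 here, it stayed 0 under every alternative that kept all 4 arrays. With an array left out, 1 array of a kind remained, so no count is given for this difference. The sizes for single members moved in those fits, as given above. The average over both kinds, 8 here, gave 13 with the authors' deposited value table and from 0 to 14 when an array was left out. Of all probes, 22.7% were called in stable cells here. That share was 14.2% with plain background subtraction, 17.3% with print-tip loess and 8.41% with the stable arrays fitted alone. The stable member counts thus fell along with the calls over all probes in these settings. Over all probes, transient calls rose from 21 (0.144%) to 645 (4.41%) with median centring and 1400 (9.58%) with scaling between arrays. They rose to 1296 (8.87%) with the transient arrays alone, and to 1.57% with the deposited value table. On average over both kinds, 22.3% of all probes were called here and 25.3% with the deposited value table. Cat in stable cells was -1.20 without the first stable array and, opposite in sign, 0.43 without the second. For each of these the cause was not tested, beyond the smaller number of arrays. Txn1 kept its direction under every alternative run, with averages from -0.71 to -0.46, and so did Txn2 (-0.44 to -0.31) and Prdx3 (-0.60 to -0.31). The filter against randomized oligonucleotides left 18 members, of which 7 were called lower in stable cells, with 29.6% of all probes called under it. No paired analysis was possible because the array numbers were given in deposit order and pair nothing.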
